A study of Mus musculus with 8 samples.

Results

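Granzymes C, D, E, F and G (Gzmc, Gzmd, Gzme, Gzmf and Gzmg) are 5 serine proteases whose genes lie in 1 cluster on mouse chromosome 14, with Gzmn among them. They were chosen by their fall in CT26 tumors treated with TP-16 alone, and are 5 of the 37309 gene names on the array. Each was measured by 1 probe, and each probe was well above background on every array. Because the difference between TP-16 and vehicle selected the genes, it is given here as a description without a test.

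Granzymes are stored in the granules of cytotoxic T cells and natural killer (NK) cells and enter a target cell with the help of perforin, a pore-forming protein. Granzyme B starts apoptosis in the target. Granzymes C to G are relatives of granzyme B found in rodents, which activated T cells and NK cells make when stimulated with interleukin-2, and which are also known from the NK cells of the pregnant uterus. In mice the genes sit between Gzmb on 1 side and Ctsg (cathepsin G, a protease of neutrophil granules) and the mast cell proteases on the other.

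The tumors grew from 500000 CT26 cells, which come from a BALB/c colon carcinoma, placed under the skin of female BALB/c mice aged 6 to 10 weeks. Treatment began at a tumor volume of 100 to 200 mm3 and ran for 2 weeks. The vehicle group received no active agent. The TP-16 group received TP-16 (BY001 in the labels), an antagonist of the prostaglandin E2 receptor EP4, at 75 mg/kg by mouth every day. The anti-PD-1 group received an antibody to PD-1, a receptor that restrains T cells, at 50 µg per mouse into the peritoneum with 2 doses a week, and the combination group received both agents. Every group carried the same cell line in the same strain. RNA of 2 samples per group was hybridized to 1-colour Agilent arrays. The labels call the samples biological replicates, but no source states if a sample was 1 tumor or several pooled, so the p-values measure the spread between these samples only.

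The arrays shared 1 slide and 1 scan. The 75th percentile of intensity ran from 371.1 to 733.6 over the 8 arrays, and was higher on the TP-16 and combination arrays than on the others. The replicates correlated at 0.98 in vehicle and at 0.99 in each other group over the 31912 tested probes, and the SD of the difference between replicates was largest in vehicle, at 0.68 on the log2 scale against 0.42 to 0.53. TP-16 treatment could not be told apart from slide column, nor antibody treatment from slide row. A whole tumor was measured, so fewer cells of a type and less RNA per cell cannot be told apart. Of the epithelial markers, Epcam was too dim to be tested, Krt19 was above background on 5 arrays, and Krt8 and Krt18 were detected on all arrays. None of the 3 tested was called in TP-16 against vehicle or in combination against anti-PD-1. In combination against vehicle 2 of the 3 were lower past a fold of 2 with an unadjusted limma p of 0.05 (15.3% of all probes were called). They were Krt8 by 2.68 and Krt18 by 1.39, with limma adjusted p of 0.0525 and 0.0196. The summed linear level of the 3 was 8.89 to 13.1 in vehicle, 6.88 to 8.72 under TP-16, 7.2 to 7.93 under anti-PD-1 and 3.26 to 5.01 under the combination, and its part in the results was not tested.

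The sequences in front of the 5 genes are shown because the members moved together over the arrays and their promoters are close copies of each other. The stretches are the last 110 bases before the RefSeq start site, in the GRCm38.p6 build, on the minus strand of chromosome 14, written 5′ to 3′. The capitals mark the 8 bases that come closest to the cyclic AMP response element TGACGTCA, the site of CREB, a factor that acts downstream of cyclic AMP, the second messenger raised by EP4.
Gzme, chr14:56120626-56120735: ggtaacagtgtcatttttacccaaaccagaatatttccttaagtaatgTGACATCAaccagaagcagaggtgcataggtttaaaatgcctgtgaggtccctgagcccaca
Gzmd, chr14:56132594-56132703: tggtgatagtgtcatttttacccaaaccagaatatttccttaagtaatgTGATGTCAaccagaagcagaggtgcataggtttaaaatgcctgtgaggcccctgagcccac
Gzmg, chr14:56159580-56159689: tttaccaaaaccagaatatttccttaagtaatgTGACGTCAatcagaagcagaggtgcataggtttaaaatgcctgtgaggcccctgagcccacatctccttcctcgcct
Gzmf, chr14:56211408-56211517: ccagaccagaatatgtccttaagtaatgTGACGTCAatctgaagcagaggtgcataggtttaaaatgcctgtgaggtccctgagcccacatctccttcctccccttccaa
Gzmc, chr14:56234658-56234767: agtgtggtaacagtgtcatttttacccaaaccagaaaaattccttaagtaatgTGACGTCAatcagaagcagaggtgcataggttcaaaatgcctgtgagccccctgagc

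Gzmg, Gzmf and Gzmc carried the full element, within a run of sequence that all 5 share. Gzmd differed from it by C4T and Gzme by G5A, counted from 1 at the 5′ end of the element. Of all 32851 promoter windows of 300 bases in the RefSeq table, 1.79% held the full element on either strand, which reads the same on both strands. It was absent from the windows of the 12 other granzyme, perforin and neighbouring genes that matched the table, Gzmb and Gzmn among them. All 5 members held the Runx letters TGTGGT, as did 16.8% of all windows and 9 of those 12 genes. The letters of the AP-1 motif (TGANTCA), the GAS motif (TTCNNNGAA), the T-box motif (AGGTGTGA) and the TATA box (TATAAA) were in no member's window, and they were in 7.81%, 8.3%, 1.28% and 13.6% of all windows. The core letters TGACG, which are part of the full element, were found in 20.8% of all windows, in Gzmc, Gzmf and Gzmg, and in 3 of the 12 other genes, Gzmb, Prf1 and Mcpt1. These are matches of letters and no measurement of binding.

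Over the 250 bases before the start, the members were 70.2% (Gzmc and Gzmf) to 94.8% (Gzmd and Gzme) identical to each other. They were 43.8% to 48.0% identical to Gzmb, 44.9% to 47.0% to Gzma, 44.7% to 47.2% to Gzmn and 43.8% to 46.0% to Ctsg. Gzmn and Ctsg were nonetheless among the genes whose profile over the arrays was most like that of the members. The probes are 60-base sequences. Those of Gzmd, Gzmf and Gzmg begin at base 168, 562 and 345 of their transcripts (NM_010372, NM_010374 and NM_010375) and are shown because they are what the levels of these genes rest on.
Gzmd probe: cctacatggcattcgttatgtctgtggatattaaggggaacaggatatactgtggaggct
Gzmf probe: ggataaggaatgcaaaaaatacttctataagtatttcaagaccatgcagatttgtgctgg
Gzmg probe: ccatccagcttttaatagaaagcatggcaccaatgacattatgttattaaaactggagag

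The array annotation places the probes, in the mm9 build, at chr14:56736456-56736515 for Gzme, chr14:56750116-56750175 for Gzmd, chr14:56776297-56776573 for Gzmg, where the probe crosses an intron, chr14:56824785-56824844 for Gzmf and chr14:56850307-56850366 for Gzmc. The probes of Gzmc (NM_010371) and Gzme (NM_010373) begin at bases 805 and 863 of the transcripts. All 5 probes lie within 114 kb. The genes are close copies of each other, and whether a probe also takes up the transcript of another member was not tested.

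All 5 members were lowest in TP-16 tumors. Levels are log2 intensities from which the array's own 75th percentile was subtracted, and each group has n = 2. Gzme was 4.67 and 6.13 in vehicle, 1.90 and 1.95 under TP-16, 5.59 and 5.81 under anti-PD-1, and 5.31 and 4.91 under the combination. Both TP-16 arrays lay below all 6 others, and the 6 others overlapped except that the combination lay below anti-PD-1.

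Gzmd was 1.61 and 2.96 in vehicle, -1.30 and -1.37 under TP-16, 2.63 and 2.77 under anti-PD-1, and 2.36 and 1.98 under the combination. Gzmg was 1.95 and 3.67 in vehicle, -0.75 and -1.09 under TP-16, 3.08 and 3.29 under anti-PD-1, and 3.02 and 2.66 under the combination. Both genes were under the 75th percentile of the array in TP-16 tumors and above it in every other tumor sample. In unscaled intensity, Gzmd gave 216 and 213 under TP-16 and between 1137 and 3127 on the 6 other arrays.

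Gzmf was 2.48 and 4.64 in vehicle, -0.11 and -0.19 under TP-16, 3.74 and 4.02 under anti-PD-1, and 3.32 and 2.98 under the combination. It spanned the widest range, 28.6-fold between its highest and its lowest array. Gzmc was 4.11 and 5.17 in vehicle, 1.95 and 2.23 under TP-16, 4.78 and 4.83 under anti-PD-1, and 4.49 and 4.11 under the combination. Gzmc spanned the narrowest range, 9.3-fold, and stayed above the 75th percentile on the TP-16 arrays.

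**Figure D1:**
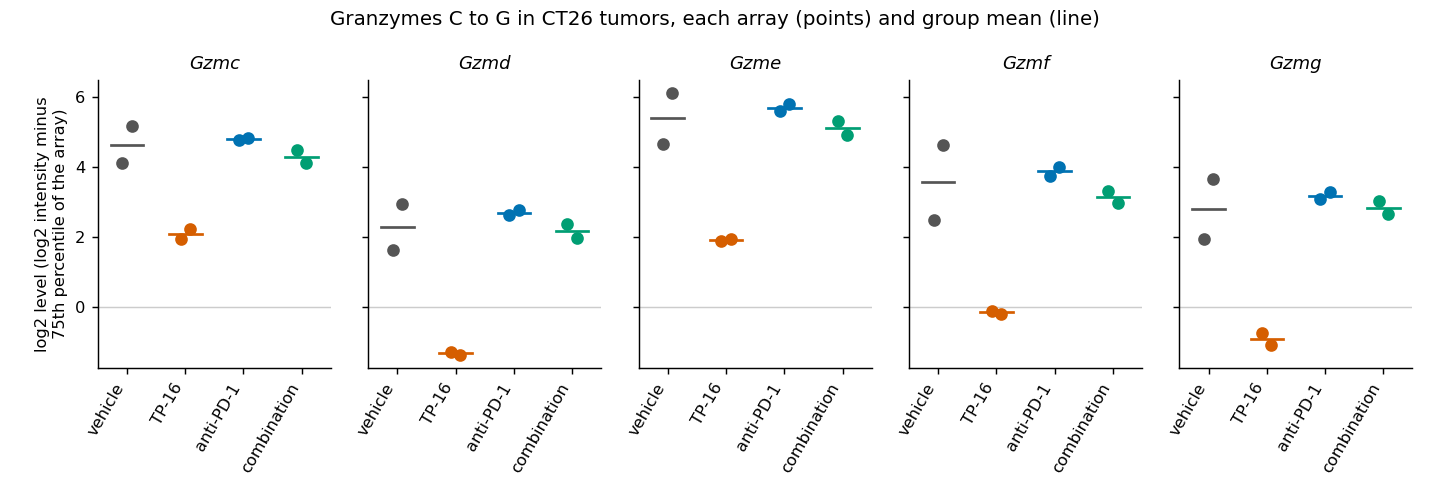
Log2 level of granzymes C to G (log2 intensity, scaled to each array's 75th percentile) on each of the 8 arrays, by treatment group. Points are arrays (n = 2 per group) and lines are group means. The TP-16 arrays lie below all others for each gene, and the vehicle arrays are the farthest apart.

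The vehicle replicates were far apart for every member. Vehicle replicate 2 exceeded vehicle replicate 1 by 1.06 (Gzmc), 1.34 (Gzmd), 1.46 (Gzme), 1.72 (Gzmg) and 2.16 (Gzmf) on the log2 scale. Within the 3 treated groups the replicates of a member differed by at most 0.39. The members followed each other closely, with Pearson r between 0.9865 and 0.9983 for pairs of members over the 8 arrays, a description of arrays that share their groups.

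In the means, Gzmc was 4.64 ± 0.75 (SD, n = 2) in vehicle and 2.09 ± 0.20 under TP-16, and Gzme was 5.40 ± 1.03 and 1.92 ± 0.04. The difference between TP-16 and vehicle was -2.55 for Gzmc, -3.47 for Gzme, -3.62 for Gzmd, -3.71 for Gzmf and -3.73 for Gzmg on the log2 scale. These are folds of 5.86, 11.1, 12.3, 13.1 and 13.3. In the order of all 31912 probes from the lowest difference up, Gzmg stood at place 31, Gzmf at 32, Gzmd at 39, Gzme at 46 and Gzmc at 190.

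The smallest difference between a TP-16 array and a vehicle array was -1.88 for Gzmc and -2.59 to -2.91 for the others. Across the array, 6.6% of the probes were at least 2-fold lower in the TP-16 mean than in the vehicle mean. Both TP-16 arrays lay below both vehicle arrays for 37.6% of the probes, and below all 6 others for 3.53%. The rule used this contrast, and nothing is read from the members' counts. Without vehicle replicate 2 the median of the 5 differences was -2.74, and without vehicle replicate 1 it was -4.29, against -3.62 with both.

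Under anti-PD-1 and under the combination the members were near the vehicle level. The differences between anti-PD-1 and vehicle were 0.17 (Gzmc) to 0.41 (Gzmd), with a median of 0.31, and both anti-PD-1 arrays lay between the 2 vehicle arrays for each member. The median was -0.42 without vehicle replicate 1 and 1.08 without vehicle replicate 2, so its sign rested on 1 array. Between combination and vehicle the differences ran from -0.41 (Gzmf) to 0.02 (Gzmg), with a median of -0.29 that became 0.56 without vehicle replicate 2. The arrays of these pairs of groups overlapped for all 5 genes. These pairs share the vehicle arrays with the contrast that chose the members, and no test was made.

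Between the combination and TP-16 alone, the members were 2.21 (Gzmc), 3.19 (Gzme), 3.30 (Gzmf), 3.51 (Gzmd) and 3.75 (Gzmg) higher on the log2 scale, which are folds of 4.64, 9.10, 9.87, 11.4 and 13.5. All combination arrays lay at least 1.89 above all TP-16 arrays. On the whole array 4.86% of the probes were at least 2-fold higher in these means. The TP-16 arrays served in choosing the genes, so these values are a description too. The departure from additivity (the TP-16 difference with the antibody less that without it) was 2.05 (Gzmc) to 3.38 (Gzmg), beside a median of 0.01 over all probes.

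**Figure D2:**
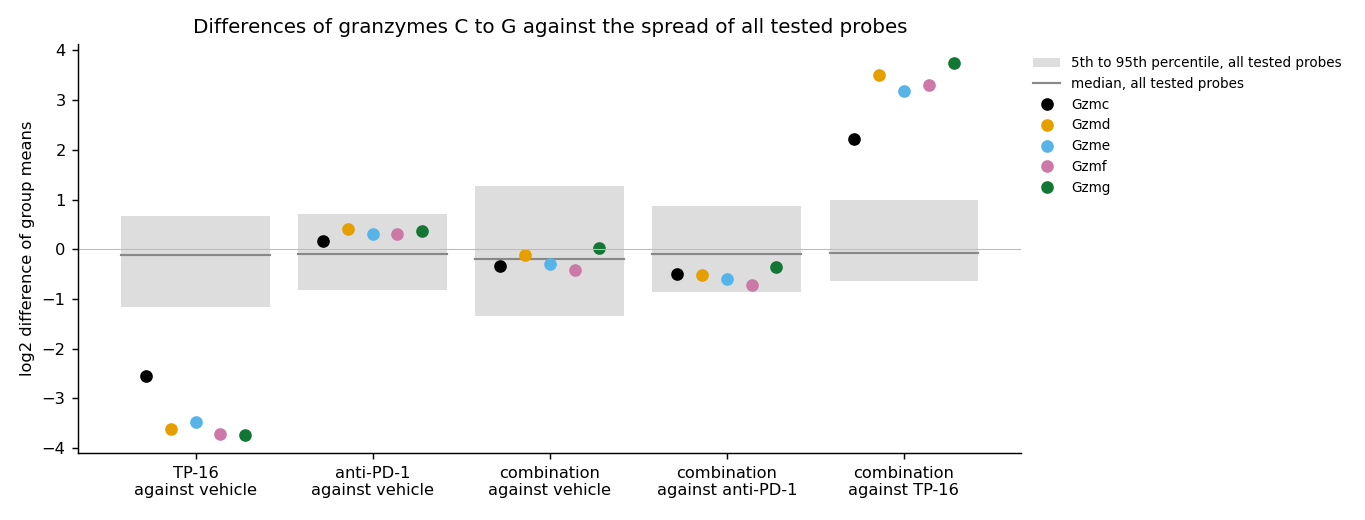
Log2 difference of group means for granzymes C to G (colored points) in 5 comparisons, beside the median (line) and the 5th to 95th percentile (grey) of all 31912 tested probes. The members lie outside the grey range in TP-16 against vehicle and in combination against TP-16, and inside it in the other 3 comparisons.

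The comparison of the combination with anti-PD-1 asks what TP-16 added in tumors that already received the antibody, and it is the only pair of groups without an array that chose the genes. Every member was lower under the combination, by less than a fold of 2. The difference was -0.51 ± 0.35 (standard error) for Gzmc, -0.53 ± 0.42 for Gzmd, -0.59 ± 0.46 for Gzme, -0.72 ± 0.65 for Gzmf and -0.35 ± 0.53 for Gzmg. The limma adjusted p was 0.398, 0.462, 0.444, 0.511 and 0.704 in the same order, and the unadjusted p was 0.201 to 0.539.

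Thus 0 of 5 members were called at a fold of 2 with an adjusted p of 0.05, and 0 of 5 at an unadjusted p of 0.05 with limma or with the methods' t-test. Over all probes 0.0157% and, for limma without adjustment, 4.27% were called. Both combination arrays lay below both anti-PD-1 arrays for 5 of 5 members, as for 41.9% of all probes, and the median difference was -0.53 against -0.10 for all probes. The 95% intervals reached from -2.33 to 0.88 for Gzmf, the widest, and from -1.37 to 0.36 for Gzmc, the narrowest.

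The direction was read after scaling. A brighter array raises the unscaled intensity of its probes as a whole, so unscaled values cannot decide the direction. In unscaled intensity Gzmc gave 10925 and 11832 under anti-PD-1 but 13627 and 12704 under the combination, on arrays whose 75th percentiles were higher. Unscaled, both combination arrays also exceeded both anti-PD-1 arrays for Gzmd and Gzmg, and the arrays overlapped for Gzme and Gzmf. With the 75th percentile, quantile normalization, normexp correction or the authors' log2 values, the difference was negative for all 5 members. Relative to the median of all probes, the members' median was -0.42, -0.35, -0.27 and -0.35 in the same order. Quantile normalization and the authors' values are close to the same scaling. The spread in this fit is shared with the vehicle arrays. In a fit of the 2 groups alone, the unadjusted limma p was 0.017 (Gzmf) to 0.124 (Gzmg) and the adjusted p 0.118 to 0.262, still with 0 of 5 past a fold of 2.

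**Figure D3:**
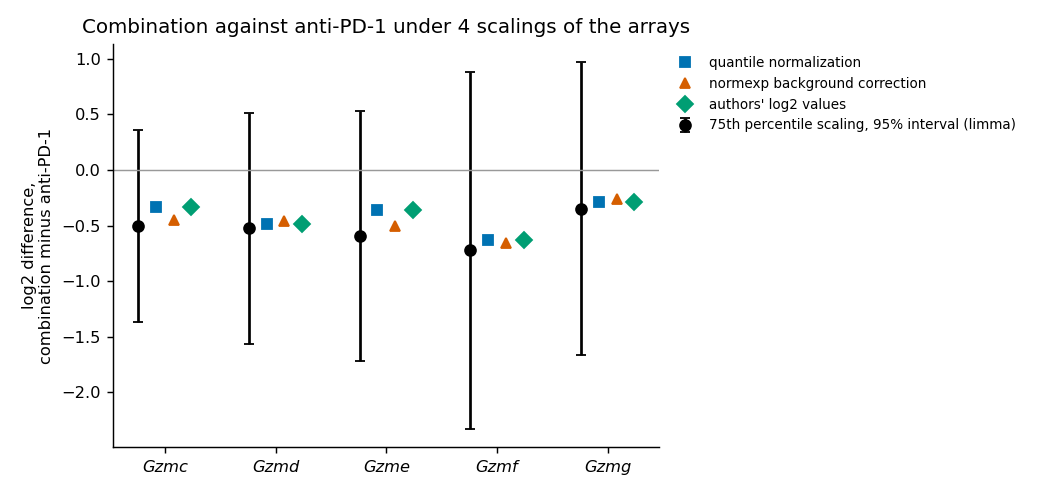
Log2 difference, combination minus anti-PD-1, for each member under 4 scalings of the arrays. Quantile normalization and the authors' log2 values give close to the same points. Black points carry the 95% interval of limma with the 75th percentile scaling (n = 2 per group). All points lie below 0, and all intervals include 0.

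In the order of the group means, anti-PD-1 was highest and TP-16 lowest for all 5 members. For Gzmc, Gzmd, Gzme and Gzmf the order was anti-PD-1, vehicle, combination and TP-16, and the arrays of anti-PD-1 and vehicle and of vehicle and combination overlapped. For Gzmg the combination mean (2.84 ± 0.26) stood above the vehicle mean (2.81 ± 1.22), with overlapping arrays. Only TP-16 was apart from its neighbor in this order for all 5 genes.

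Along the chromosome, genes on both sides of the members were measured too. In mm9 order the differences between TP-16 and vehicle were 0.30 for Cma1, 0.02 for Cma2, 0.67 for Mcpt2, 0.20 for Mcpt4, -0.93 for Mcpt8 and -1.89 for Ctsg. The members and Gzmn followed, and Gzmb, the next gene after Gzmc, had a difference of 0.00. Cma1, Cma2, Mcpt2 and Mcpt4 encode proteases of mast cells and Mcpt8 a protease of basophils. Both TP-16 arrays lay below the 6 others for Mcpt8 and Ctsg too, and for Mcpt8 the gap to vehicle replicate 1 was small (-2.44 against -2.40). Mcpt2 was not well above background on the vehicle arrays.

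Of the 8 tested neighbors, 0 rose and 2 fell past a fold of 2 with an unadjusted limma p of 0.05 (6.18% of all probes were called), and 0 passed an adjusted p of 0.05. The 2 genes were Gzmn and Ctsg. Mcpt1 and Mcpt9 were too dim to be tested. Ctsg was 0.25 and 2.14 in vehicle, -0.86 and -0.54 under TP-16, 1.82 and 1.85 under anti-PD-1, and 1.71 and 1.28 under the combination. Its difference of -1.89 ± 0.58 between TP-16 and vehicle had a limma adjusted p of 0.128 and was -0.95 without vehicle replicate 2, where it was not called, as it was not without TP-16 replicate 1.

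Gzmn, the granzyme gene inside the run of members, was not well above background on either TP-16 array and on 1 of the 2 vehicle arrays. It was at least 1.59-fold lower under TP-16 than in vehicle, with measured means of -7.05 and -4.11 and a limma adjusted p of 0.063, and its measured difference of -2.95 was -1.98 to -0.87 under the 3 other scalings. Between the combination and anti-PD-1 it fell by 1.08 ± 0.39 (unadjusted limma p of 0.0342, adjusted 0.161), and the call was lost on leaving out either TP-16 array, anti-PD-1 replicate 1 or combination replicate 2 (-0.64). The difference was -0.82 to -0.78 under the 3 other scalings, under a fold of 2, and the methods' t-test called none of the neighbors. Of the 8 neighbors, 6 rose in combination against TP-16 at the unadjusted threshold (4.34% of all probes were called) and 0 at the adjusted one, among them Ctsg by 2.19 ± 0.58 (1.98 and not called without combination replicate 1) and Mcpt4 by 1.21. Another of the 6 was Gzmn, for which the data give only a bound of at least 1.28-fold, since it was not well above background under TP-16, and its difference was 0.26 to 2.53 under the 3 other scalings.

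**Figure D4:**
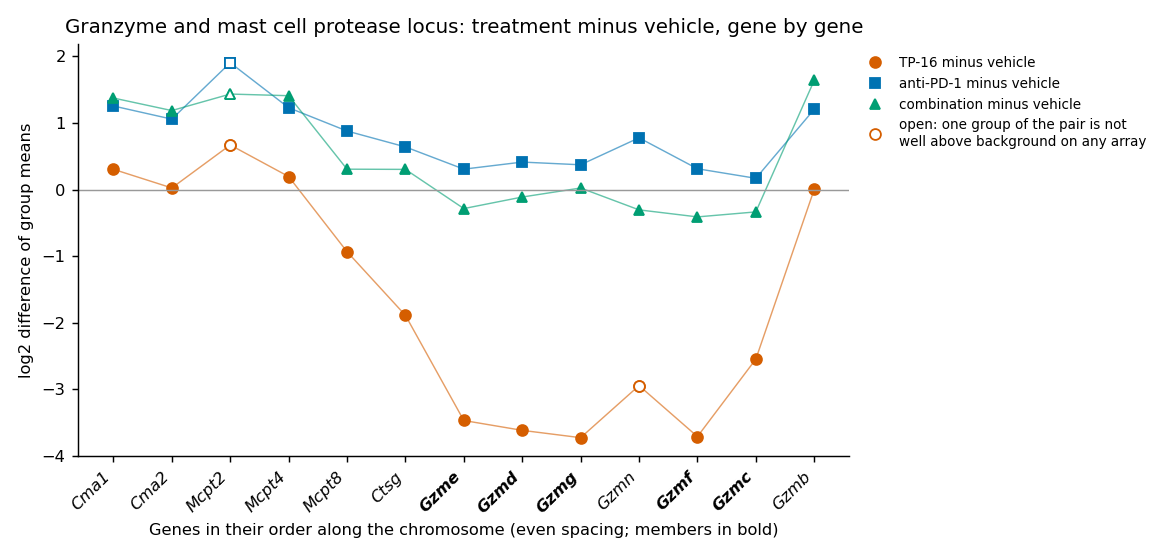
Log2 difference from vehicle for 13 genes in their order along chromosome 14, evenly spaced, for each of the 3 treatments. Open symbols mark a pair with 1 group not well above background. Under TP-16 the value is 0.30 at Cma1, -3.73 at Gzmg and 0.00 at Gzmb.

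None of granzymes A, B, K and M or perforin was called in TP-16 against vehicle. They are given here as a family, chosen after their values were seen. Gzmb was 2.17 and 3.70 in vehicle, 2.93 and 2.94 under TP-16, 4.21 and 4.07 under anti-PD-1, and 4.37 and 4.78 under the combination. The TP-16 arrays lay between the vehicle arrays. Gzmb rose under anti-PD-1 by 1.21 ± 0.47 (unadjusted limma p of 0.0449, adjusted 0.335), and this was 0.44 and not called without vehicle replicate 1.

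Gzma, a tryptase-like granzyme, was 3.0 and 5.18 in vehicle and 5.13 and 5.15 under TP-16, and its difference of 1.05 ± 0.66 did not pass the test (limma adjusted p of 0.355). It rested on the vehicle arrays, at -0.04 without vehicle replicate 1 and 2.14, then called, without vehicle replicate 2. Prf1, which encodes perforin, was 0.65 and 2.10 in vehicle and 0.94 and 0.61 under TP-16, and the difference of -0.60 ± 0.44 did not pass either (limma adjusted p of 0.426). This was -1.32, then called, without vehicle replicate 1 and 0.12 without vehicle replicate 2. For Gzmk the difference was 1.32 and for Gzmm -0.11, with limma adjusted p of 0.335 and 0.733. On leaving out 1 array these were 0.38 to 2.26, called in 1 of the 8 fits, and -0.36 to 0.14. Granzyme M is best known from NK cells and granzyme K from T cells.

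**Figure D5:**
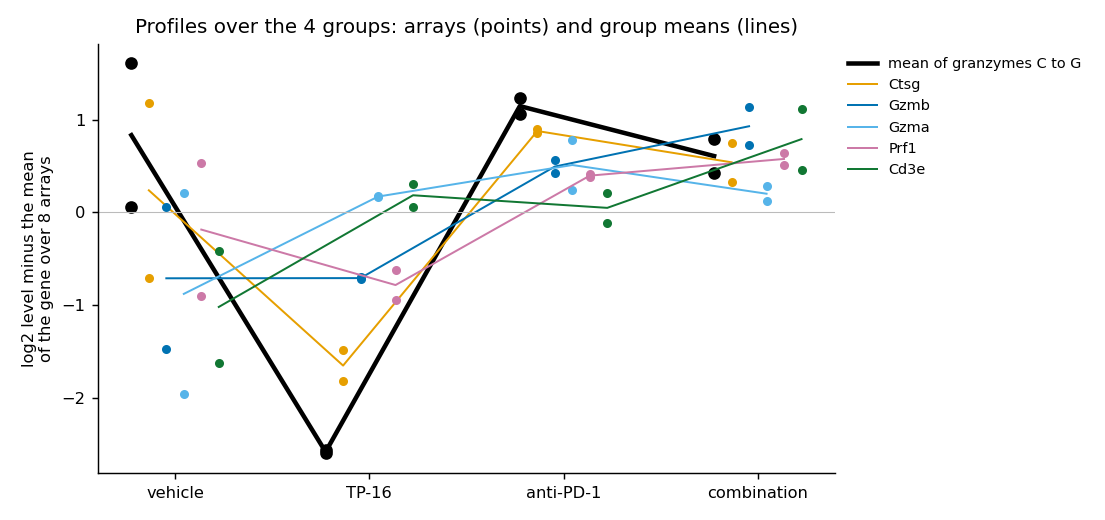
Log2 level minus the mean of each gene over the 8 arrays, for the mean of granzymes C to G and for Ctsg, Gzmb, Gzma, Prf1 and Cd3e. Points are arrays (n = 2 per group) and lines join group means. Both TP-16 arrays lie below all others for the members and Ctsg, below all but vehicle replicate 1 for Prf1, and between the vehicle arrays for Gzmb.

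Granule machinery as a list (20 genes for granzymes, perforin and the making and release of granules, 19 of them tested) gave 2 genes higher, Nkg7 and Fasl, and 1 lower, Gzmn, in TP-16 against vehicle (6.18% of all probes were called), with a median difference of 0.37 beside -0.12 for all probes. Nkg7 (a protein of cytotoxic granules) rose by 1.88 and Fasl (Fas ligand) by 1.55, and by 0.69 and 0.64 without vehicle replicate 1. Each of them was called in 1 of the 8 fits that left out an array, and the list's count of 3 was 1 with normexp correction, the replicate block or the methods' t-test. In combination against anti-PD-1 the list gave 1 gene higher and 1 lower (4.27% of all probes were called). Rab27a, a small GTPase needed for granule release, rose by 1.09 ± 0.27 (limma adjusted p of 0.0886) and by 0.90 without combination replicate 2, and Gzmn fell. The difference of Rab27a was 0.33 to 1.15 under the 3 other scalings, and with normexp correction 0 of the 19 genes were called. None of the 19 passed an adjusted p of 0.05 in either comparison.

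In combination against vehicle 9 of the 19 rose at the unadjusted threshold (15.3% of all probes were called). Ctsc, the enzyme that activates granzymes by removing their first residues, rose by 1.65 and Unc13d, which readies granules for release, by 1.89 in that comparison. In anti-PD-1 against vehicle 3 of 19 rose (3.83% of all probes were called), Gzmb, Nkg7 and Fasl, each of which passed in 1 of the 8 fits that left out an array. The members, in the same samples, were near vehicle in both comparisons.

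The list of inducers of granzyme genes held 18 genes, 16 of them tested. It covers interleukin-2, 12 and 15 and their receptors, the kinase Jak3, and the factors Stat4, Stat5, Tbx21, Eomes, Runx3 and Prdm1. In TP-16 against vehicle 3 rose and 0 fell at the unadjusted threshold (6.18% of all probes were called), and 0 passed the adjusted one. They were Tbx21 (T-bet) by 1.91, Stat4 by 1.66 and Il2rb (a subunit of the interleukin-2 receptor) by 1.55, with limma adjusted p of 0.171, 0.0968 and 0.168. Without vehicle replicate 1 Tbx21 and Il2rb differed by 0.87 and 0.63. Of the 8 fits that left out an array, Tbx21 was called in 3 and Il2rb in 1. Stat4 was called in all 8 fits that left out an array, and the methods' t-test called 0 of the 16. In combination against anti-PD-1 Stat4 rose by 1.04 ± 0.41 (unadjusted limma p of 0.0453, adjusted 0.182), and in 6 of the 8 fits that left out 1 array it did not pass. This difference was 0.83 to 1.05 under the 3 other scalings. Il2 itself and Il12a were too dim to be tested. The lists were chosen with earlier results of these data known, and their counts are a description.

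T cells and NK cells are the usual sources of granzymes, and their markers were measured on the same arrays. Of 7 CD8 T cell markers, 3 rose and 0 fell in TP-16 against vehicle at the unadjusted threshold (6.18% of all probes were called), among them Cd8a by 2.92 and Cd3e by 1.21, and 0 passed the adjusted one. Without vehicle replicate 1 these were 1.12 and 0.60, Cd8a was called in 1 and Cd3e in 5 of the 8 fits that left out an array, and Cd8a was above background on 1 vehicle array only. The summed level of the list was 6.13 to 15.2 in vehicle, 19.1 to 23.3 under TP-16, 19.4 to 23.7 under anti-PD-1 and 28.4 to 49.9 under the combination.

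Of 7 NK cell markers, 2 rose (Klrb1c by 1.27 and Klra8 by 1.44) and 1 fell (Klra1, by 2.26) at the unadjusted threshold (6.18% of all probes), and 0 passed the adjusted one. The median difference of the list was 1.27 with 6 of 7 above 0. The summed level was 5.91 to 10.1 in vehicle, 8.06 to 11.4 under TP-16, 8.68 to 13.1 under anti-PD-1 and 12.5 to 18.6 under the combination. Klra1, the marker that fell, was the brightest of the list on vehicle replicate 1 (2.07), so the sum hides part of the rise of the others. Without vehicle replicate 1 Klrb1c and Klra8 differed by 0.70 and 0.63, and without TP-16 replicate 2 Klra1 by -1.40, and none of these was then called. Klrb1c, Klra8 and Klra1 were called in 3, 2 and 5 of the 8 fits that left out an array. All markers of both lists were above background on all arrays save Cd8a. The part of these cells in the members' values was not tested.

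Markers of other cells that use proteases of this locus were measured too. Of 8 mast cell markers, 0 rose and 0 fell in TP-16 against vehicle, and the summed level was 16.2 to 22.4 in vehicle, 21.3 to 25.9 under TP-16, 39.9 to 48.6 under anti-PD-1 and 50.3 to 60.9 under the combination. Basophil markers summed to 0.67 to 1.07 in vehicle and 0.601 to 0.728 under TP-16 over 3 tested genes of 4, with Prss34 too dim. Of these 3, 1 was called higher (6.18% of all probes were called), Cd200r3, which was above background on no vehicle or TP-16 array, and 0 lower. Their summed level was 1.44 to 1.64 under anti-PD-1 and 1.35 to 1.59 under the combination, and their part in the result was not tested.

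Of 7 neutrophil markers, 1 was called lower in TP-16 against vehicle at the unadjusted threshold (6.18% of all probes were called), Ctsg, and 0 passed the adjusted one. The median difference of the list was -0.41 with 1 of 7 above 0. That gene, Ly6g, was above background on no vehicle or TP-16 array, so its sign was not measured. The summed level was 111 to 117 in vehicle, 78.3 to 88.8 under TP-16, 97.7 to 98.9 under anti-PD-1 and 57.6 to 73 under the combination. Red blood cell markers fell in 3 of 3 at the unadjusted threshold and in 0 of 3 at the adjusted one, with a summed level of 280 to 428 in vehicle, 83 to 96.2 under TP-16, 136 to 141 under anti-PD-1 and 63.2 to 80.2 under the combination. Their part in the members' values was not tested. The 3 tested of 5 trophoblast and placenta genes did not pass in TP-16 against vehicle, with Tpbpa too dim, and summed to 345 to 391 in vehicle and 239 to 284 under TP-16, of which the probe of Psg23 gave the most. Macrophage markers summed to 76.7 to 89.1 in vehicle, 92.5 to 96.4 under TP-16, 85.8 to 100 under anti-PD-1 and 134 to 198 under the combination. The part of these cells in the members' values was not tested either.

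The genes whose profile over the 8 arrays was most like the mean of the members, of 21611 genes, were Clec2d (Pearson r of 0.983), Map3k10 (0.971), Gzmn (0.967), the probe named NAP019088-001 (0.965), Ctsg (0.962), Hmx2 (0.959), Marveld1 (0.959), Stac3 (0.959), Fcrl6 (0.957) and B4galnt2 (0.955). Of these, 2 lie in the locus, Gzmn and Ctsg. Clec2d, which encodes a ligand of an inhibitory NK cell receptor, was 2.33 and 2.69 in vehicle, 1.69 and 1.74 under TP-16, 2.56 and 2.60 under anti-PD-1, and 2.66 and 2.57 under the combination. Its difference of -0.79 between TP-16 and vehicle was far smaller than that of the members.

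Fcrl6 was not well above background on the TP-16 arrays and was at least 3.81-fold lower there than in vehicle, with measured means of -5.37 and -2.84. B4galnt2, a glycosyltransferase, was above background on 1 of the 2 TP-16 arrays. The lowest correlations were those of Ccdc50 (-0.967), Mms19 (-0.960), Ecpas (-0.953), Nop14 (-0.942) and Ccar2 (-0.942), which differed from vehicle by 0.22 to 0.50 under TP-16. The 8 arrays come from 4 groups on 1 slide, so these values describe likeness and carry no test.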

How the data were processed

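Groups and replicate numbers came from the labels. The doses, the age and the volumes of the tumors came from the study's methods and legends, which name TRIzol for RNA extraction where the labels name a column kit. The authors deposited each array's scanner file, with intensities that Agilent Feature Extraction 10.7.1.1 (named in the submitters' processing notes) had background-subtracted and detrended. A table of log2 values from GeneSpring was also deposited by the authors, whose kind of normalization is not given in the sources used here. Every column had a median of 5.16, values of equal rank lay within 0.00115 of each other across columns, and it correlated with the scanner values of the same array at 0.9947 to 0.9999. Its columns thus share 1 distribution, as after quantile normalization. Its member differences were close to those of that scaling here (Gzmc -0.34 with both in combination against anti-PD-1), so the 2 are not separate checks.

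Here, of 56605 probes, 38 were left out for an outlier mark, and spots of a probe were averaged. The level was the log2 intensity less the array's 75th percentile, which centers the arrays but leaves shifts of the median of all probes of -0.12 in TP-16 against vehicle and -0.10 in combination against anti-PD-1. A probe entered the tests when both arrays of some group were well above background (31912 probes). All 8 arrays entered a single limma 3.58.1 fit (R 4.3.3) with no block, and p-values were adjusted by Benjamini-Hochberg over all tested probes. A gene was called at a fold of 2 with an unadjusted (the methods' threshold) or adjusted p of 0.05. Where a group was not above background, a lower bound of the fold was computed per array against the dimmest probe above background. A list's summed level is the sum of its tested genes on the linear scale, in which the brightest probes weigh most. The number of arrays limits the precision. The procedure was tested on simulated data.

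The text names the 5 members, genes of the granule, neighbor and inducer lists (not of the marker lists) past the methods' threshold in combination against anti-PD-1, the tested neighbors, and the 10 genes most like and the 5 least like the members. Further genes are named as examples of the counts. A list of targets and partners of granzymes is not reported here. The members and lists were chosen with earlier results of these data known. Gene names followed RefSeq (GRCm38.p6) for 32971 probes and the array annotation otherwise, all 5 members were found in the RefSeq promoter table, and promoters were aligned in pairs with Biopython 1.88. Alternatives were quantile normalization, normexp with an offset of 50, other filters on dim probes, the authors' log2 values, a fit of 2 groups, the replicate block, trended moderation, the methods' t-test and leaving out each array. A slide block could not be fitted with 1 slide.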

Additional observations from a re-analysis of the deposited data

How the results depend on the processing

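The number of members called in combination against anti-PD-1 was 0 with all 17 alternatives, at both thresholds. A call needs a fold of 2, and the largest difference was -0.89 (Gzmf, without combination replicate 1). The filters on dim probes, the fit of 2 groups, the replicate block, trended moderation and the t-test leave the differences unchanged. So does leaving out a vehicle or TP-16 array, and for all of these the 0 was fixed in advance. The median difference of the members in that comparison was -0.72 to -0.33 on leaving out 1 array, and -0.36 with quantile normalization or the authors' log2 values. Without either vehicle replicate the unadjusted limma p of Gzmf was 0.00823 and the adjusted p 0.0879. The medians against vehicle rested on the vehicle arrays: -4.29 (without vehicle replicate 1) to -2.74 (without vehicle replicate 2) for TP-16, -0.42 (without vehicle replicate 1) to 1.08 (without vehicle replicate 2) for anti-PD-1, and -0.87 (without vehicle replicate 1) to 0.56 (without vehicle replicate 2) for the combination. The median in combination against TP-16 was 3.13 to 3.47. In TP-16 against vehicle it was -3.55 with quantile normalization and -3.36 with normexp. List counts rested on single arrays: granule genes past the methods' threshold in TP-16 against vehicle numbered 1 to 8, inducers 1 to 8 and neighbors 1 to 3 when arrays were left out.

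Same-numbered replicates did not pair: the correlation of their deviations was -0.19 to 0.29 over 6 pairs of groups. With the replicate block the adjusted limma p of the members in combination against anti-PD-1 was 0.402 to 0.711, the median difference stayed at -0.53, and the block changed no call of a member. Using every probe of a member gives the same values, since each has 1 probe. The signal of the members was above background on all arrays. Background limits other genes, such as Gzmn, Mcpt2, Fcrl6, B4galnt2, Cd8a, Cd200r3 and Ly6g.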
